A study of Mus musculus with 2 samples.

Results

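Potassium channel genes were described in gastrocnemius, a mostly fast-fibre calf muscle, of wild-type C57BL/6 male mice with and without nerve supply. The set holds every gene whose name on the array starts with Kcn, except Kcnj8, and comprises 83 of the 21929 genes named on the array, represented by 122 probes. One group was denervated for 14 days from 7 weeks of age and the other served as control. The control is called a sham control in one label and only a control in another, so whether these mice were operated on is not settled, and neither does any label say how the muscle was denervated. Both groups were 9 weeks old at sampling. RNA of 6 mice was pooled in each group and hybridised to 1 array, both on 1 slide, so every difference below describes these 2 pools, with no replicate check and no test. The whole muscle was used, so fewer cells of a type and less RNA per cell cannot be told apart.

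Potassium channels let potassium leave the muscle fibre, which sets its resting potential and ends each action potential. The voltage-gated families, such as Kcna, Kcnc and Kcnq, open on depolarisation, the Kcnj inward rectifiers hold the membrane near rest, the Kcnk two-pore channels carry leak current, and the Kcnm and Kcnn channels open when calcium rises. Pore subunits assemble with auxiliary subunits that change gating or transport to the membrane. Denervated muscle is known for a less negative resting potential and, in rat, for apamin-sensitive calcium-activated channels that innervated fibres lack.

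Of the 83 genes, 45 (54.2%) were measured, meaning well above background on both arrays and not saturated, against 71.2% of all genes on the array. A further 7 were detected (well above background) only in control muscle, 1 only in denervated muscle and 30 in neither. For such a gene the difference is a bound, which reached 2-fold for 3 of the 7 (33.8% of all control-only genes) and for the 1 denervated-only gene (43.6%). Among the 45 measured genes, 11 were at least 2-fold lower in the denervated pool, or 24.4%, where 8.58% of all 15612 measured genes were. A further 4 were at least 2-fold higher, or 8.89%, where 6.93% of all measured genes were. Among these 4 was Kcnk5, whose other probe gave a log2 difference of 0.62. With each gene's probe of smallest difference, 3 were higher (5.77% of all genes then). The median log2 difference, denervated minus control, was -0.52 over the 45 genes and -0.11 over all measured genes. Differences past 4-fold were found for 5 genes on the lower side and 4 on the higher side, where 1.64% and 1.58% of all measured genes lay. Levels are given as scaled signal, the intensity divided so that the 75th percentile of each array is 1000, with the control value first and the denervated value second in each pair. Most members gave dim signals: 25 had a scaled signal under 100, of which 5 were at least 2-fold lower and 1 higher, against 10.5% and 5.12% of all genes in that range. In the range from 100 to 1000, 4 of 13 members were at least 2-fold lower and 3 higher (9.01% and 8.33% of all genes there), and above 1000 the counts were 2 and 0 of 7 (7.53% and 6.71%).

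The all-gene level depends on the scaling, which adds 0.42 to each difference when the spike-ins are used and 0.43 when no scaling is applied. With spike-in scaling 7 members were at least 2-fold lower and 6 higher (3.93% and 15.2% of all measured genes), Kcnc4 among the added higher genes, and 26 of 45 lay below 0 in place of 32. The members' median was then -0.10, beside 0.31 over all genes. Differences between about -0.43 and 0 therefore have no settled direction, in the marker lists below too. The same holds for values below -0.43 by less than their technical error, given as ± below. Kcnma1, at -0.48, was at -0.06 with spike-in scaling.

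**Figure D1:**
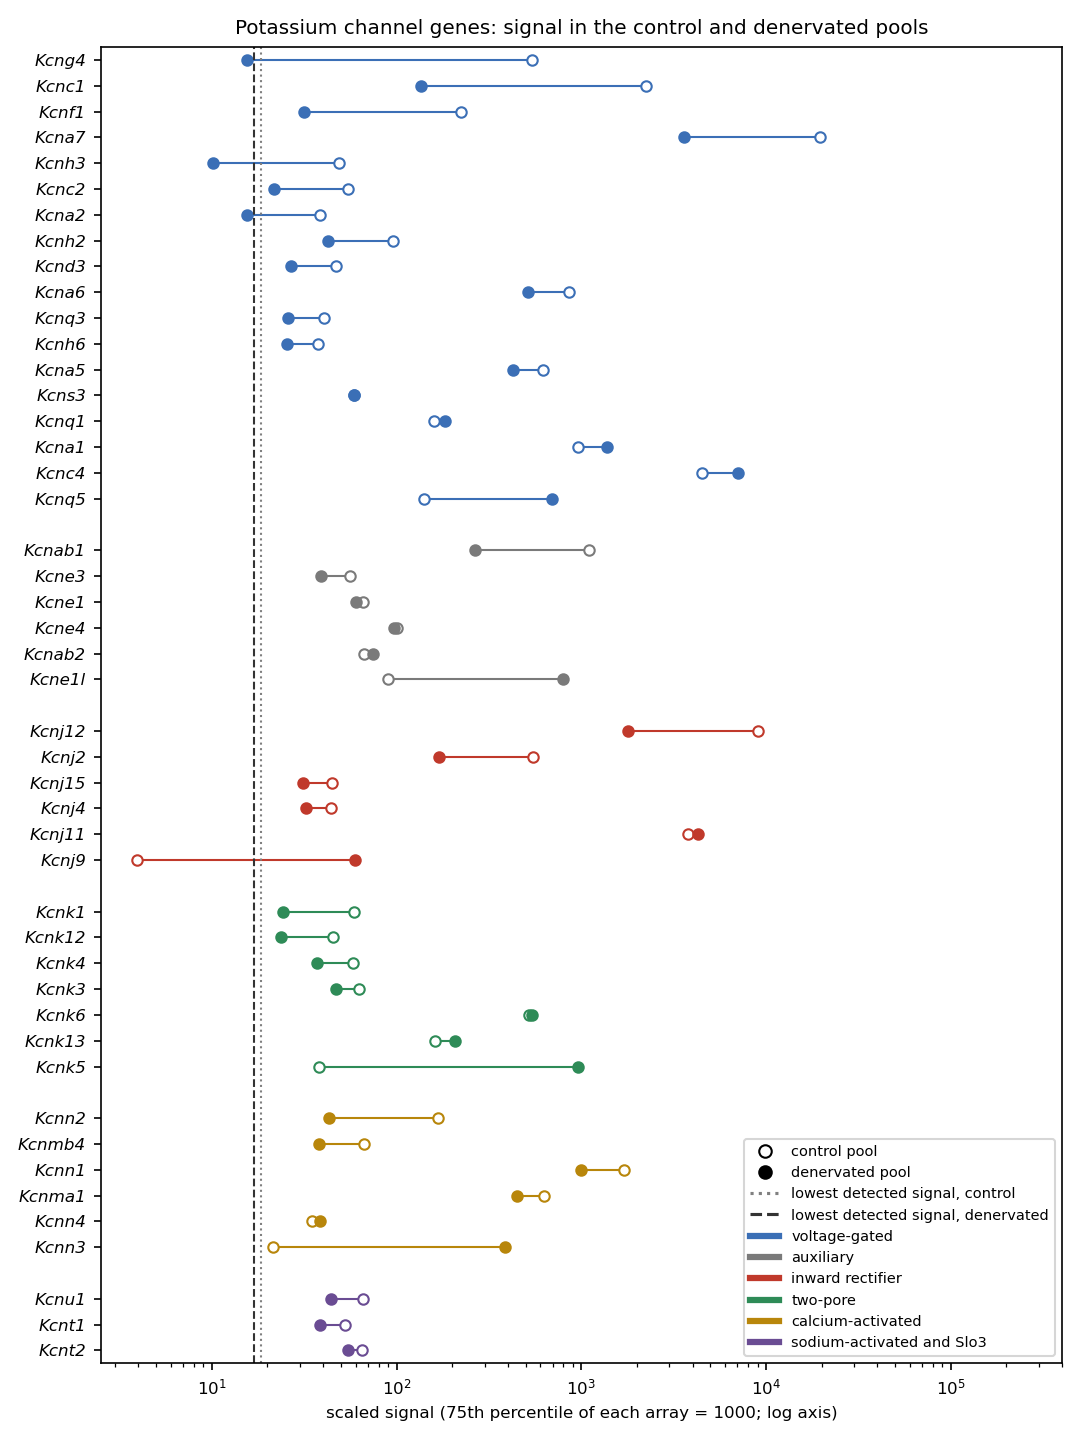
Scaled signal (log axis, 75th percentile of each array set to 1000) of 42 measured genes and the 4 with a bound of 2-fold or more, grouped by class, with open points for the control pool and filled points for the denervated pool. Vertical lines mark the lowest signal counted as detected, 18.4 for control and 16.8 for denervated muscle; Kcnk5, Kcnn3, Kcne1l and Kcnq5 have filled points far to the right of the open ones, and Kcng4, Kcnc1, Kcnf1, Kcna7 and Kcnj12 far to the left.

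Of the 41174 probes on each array, 70.9% were detected in control and 68.4% in denervated muscle. The labels were checked with 5 genes known to respond to loss of the nerve, of which 4 were at least 2-fold higher and 1 lower. The acetylcholine receptor subunit Chrng read 63.3 in control and 20880 in denervated muscle (scaled signal), and Myog, a myogenic transcription factor, 535.6 and 21658, so the library labelled denervated carried these marks. Of 15 muscle fibre markers 14 were measured and 1 was saturated, so the tissue carried the label's defining genes, with differences all below 0 (median -0.54, range -1.59 to -0.17).

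Promoter sequences are shown for 4 genes. Kcnk5 and Kcnn3 had the highest differences by the brightest probe, though the other Kcnk5 probe was at 0.62. Kcng4 had the largest bound among genes detected only in control muscle, and Kcna7 was a lower voltage-gated gene. The sequences come from RefSeq (GRCm38.p6) and have E-boxes in capitals. They run 5′ to 3′ on the gene's strand, from 250 bases before to 50 bases after the start of transcription. An E-box (CANNTG, searched on both strands, where it is the same) is the general motif of the factor family that includes MyoD and Myog. CAGCTG is 1 form of it, and which factor binds a given form was not determined.
Kcnk5, chr14:20181733-20182032, minus strand: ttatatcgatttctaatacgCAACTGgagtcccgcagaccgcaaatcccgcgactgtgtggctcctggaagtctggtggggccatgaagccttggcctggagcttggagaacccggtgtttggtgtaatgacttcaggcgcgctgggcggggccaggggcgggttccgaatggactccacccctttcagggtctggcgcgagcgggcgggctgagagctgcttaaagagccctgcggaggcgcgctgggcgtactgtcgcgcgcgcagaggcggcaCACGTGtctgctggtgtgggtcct
Kcnn3, chr3:89519914-89520213, plus strand: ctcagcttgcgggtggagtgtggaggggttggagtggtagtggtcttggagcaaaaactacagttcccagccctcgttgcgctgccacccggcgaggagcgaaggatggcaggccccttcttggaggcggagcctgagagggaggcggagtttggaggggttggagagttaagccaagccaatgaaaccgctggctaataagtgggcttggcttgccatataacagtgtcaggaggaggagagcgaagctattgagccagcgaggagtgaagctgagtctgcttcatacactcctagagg
Kcng4, chr8:119635631-119635930, minus strand: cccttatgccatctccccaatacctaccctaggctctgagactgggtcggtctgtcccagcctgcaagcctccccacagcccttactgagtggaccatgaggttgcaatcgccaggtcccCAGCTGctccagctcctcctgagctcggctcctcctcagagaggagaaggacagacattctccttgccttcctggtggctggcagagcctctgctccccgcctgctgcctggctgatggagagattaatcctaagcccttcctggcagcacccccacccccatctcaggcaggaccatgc
Kcna7, chr7:45405710-45406009, plus strand: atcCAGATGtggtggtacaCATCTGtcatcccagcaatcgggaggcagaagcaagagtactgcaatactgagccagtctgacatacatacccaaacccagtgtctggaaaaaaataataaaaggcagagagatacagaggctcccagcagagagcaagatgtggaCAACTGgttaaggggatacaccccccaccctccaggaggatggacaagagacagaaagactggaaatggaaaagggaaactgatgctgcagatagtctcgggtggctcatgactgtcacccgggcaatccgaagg
The Kcna7 promoter holds 3 E-boxes, that of Kcnk5 holds 2, that of Kcng4 holds 1 of the form CAGCTG, and the letters are not in the Kcnn3 window. Of the 83 genes, 61 matched a RefSeq promoter by symbol. CANNTG was in at least one promoter of 7 of 9 matched genes that were 2-fold lower, 2 of 4 that were 2-fold higher and 16 of 19 measured genes under 2-fold, and in 75% of all 27025 genes of the table. CAGCTG was in 27.9% of the 61 members and 18.3% of all genes. It was in 2 of 9 lower genes, 1 of 4 higher genes and 5 of 19 measured genes under 2-fold. Both matched genes that were lower by a bound of 2-fold or more held it (2 of 2). A match describes these letters only.

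Voltage-gated pore and modifier subunits were the largest class, with 36 genes of which 18 were measured. Of these 6 were at least 2-fold lower and 1 higher, beside 8.58% and 6.93% of all measured genes, and the class median was -0.60. The lowest difference was that of Kcnc1 (Kv3.1, a fast repolarising channel), which read 2237 in control and 135.8 in denervated muscle. This is a log2 difference of -4.04 ± 0.21, or 16.5-fold lower, where ± gives the technical error that the scanner software assigns to the spots of both arrays. Its probe lies on chromosome 7 at 46295439 to 46295498 (mm8). A second Kcnc1 probe gave -4.05 ± 0.23, and the third was detected only in control muscle and at least 35.3-fold higher there, so all 3 probes placed the gene lower in the denervated pool. Of other Kv3 genes, a pair differed in opposite directions: Kcnc2 read 54.4 and 21.8 (-1.32 ± 0.35) and Kcnc4 4494 and 7082 (0.66 ± 0.20). The second measured probe of Kcnc2 (-0.86) lay under 2-fold, as did Kcnc2 in 4 of 11 alternatives (-0.69 with normexp). Kcnc4 (Kv3.4), a fast inactivating channel of skeletal muscle, was above 0 under each scaling run.

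Kcng4, which encodes the silent modifier subunit Kv6.4 that assembles with Kv2 channels, read 542.7 in control and 15.5, not well above background, in denervated muscle. It was at least 32.2-fold lower in the denervated pool (probe on chromosome 8 at 122510904 to 122510963, mm8). The bound was 7.49-fold with normexp background correction. Kcnf1 (Kv5.1), another silent modifier, read 222.8 and 31.6, a difference of -2.82 ± 0.26 or 7.04-fold, and of -1.71 with normexp. The second Kcnf1 probe was not well above background on either array. Of the other 6 modifier genes, Kcns3 read 59.1 and 58.7 (-0.01 ± 0.24), and Kcng3, Kcns1, Kcns2, Kcnv1 and Kcnv2 were not well above background on either array, nor was the Kv2 gene Kcnb2.

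Among Kv1 genes, Kcna7 (Kv1.7, a channel of skeletal muscle and heart) stood at 19601 in control and 3599 in denervated muscle. The difference was -2.45 ± 0.20, or 5.45-fold lower, by its only probe (chromosome 7 at 45279206 to 45279270, mm8). Kcna2 was detected only in control muscle and at least 2.3-fold higher there, a bound that was under 2-fold with loess, quantile, spike-in or no scaling and with normexp. Kcna5 (Kv1.5; 621.7 and 425.2, -0.55 ± 0.20) and Kcna6 (854.3 and 515.3, -0.73 ± 0.20) were below 0 by less than 2-fold. With spike-in scaling Kcna5 was at -0.12, inside its technical error. Kcna1 was the Kv1 gene above 0, with 960.3 and 1371 (0.51 ± 0.20). Kcna3 and Kcna4 (Kv1.4) were not well above background on either array.

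Kcnq5 (Kv7.5), an M-type channel subunit found in skeletal muscle, was the 1 voltage-gated gene at least 2-fold higher. Its signal was 140.6 in control and 691.6 in denervated muscle, a difference of 2.30 ± 0.21 or 4.92-fold. The second Kcnq5 probe was detected only in denervated muscle, at least 4.74-fold higher there. Kcnq1 (158.8 and 183.6, 0.21 ± 0.21) and Kcnq3 (-0.64 ± 0.33) were under 2-fold.

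Of the ether-a-go-go family, Kcnh2, the erg channel whose Merg1a form has been tied to muscle wasting in mice, read 95.6 in control and 42.5 in denervated muscle (-1.17 ± 0.25). Which splice forms its 1 probe reads was not determined, and the difference was under 2-fold in 5 of 11 alternatives. Kcnh3 was detected only in control muscle, at least 2.88-fold higher there (1.69-fold with normexp), while its other probe was not well above background on either array. Kcnh6 was at -0.56 ± 0.35. Kcnh1, Kcnh5, Kcnh7 and Kcnh8 were not well above background on either array. Of the Kv4 genes, Kcnd3 was at -0.81 ± 0.34, and Kcnd1 and Kcnd2 were not well above background on either array.

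**Figure D2:**
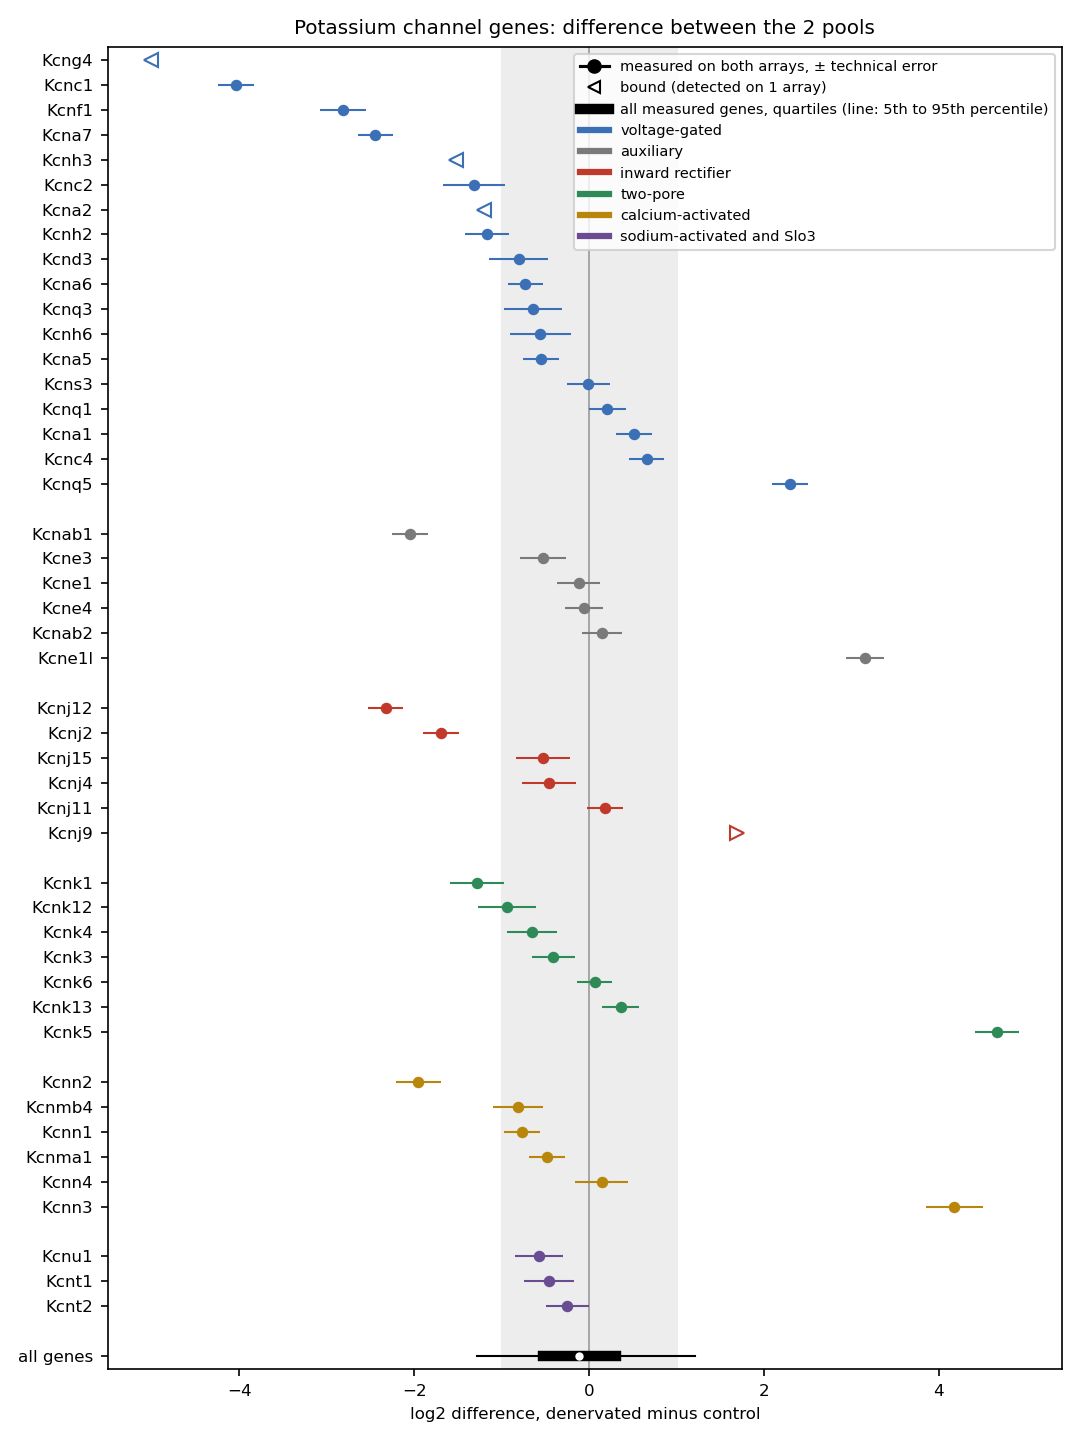
Log2 difference (denervated minus control) of the same genes, by class, with bars for the technical error and open triangles for bounds of genes detected on 1 array. The grey band spans differences under 2-fold, and the bottom row gives all measured genes (median -0.11, quartiles -0.53 and 0.31, thin line from the 5th to the 95th percentile, -1.29 to 1.21); Kcnk5, Kcnn3, Kcne1l and Kcnq5 lie to the right of that range.

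Auxiliary subunits of voltage-gated channels, 12 genes with 6 measured, had a median of -0.09. In this class 1 gene lay past 2-fold on each side, beside 8.58% of all measured genes lower and 6.93% higher. Kcnab1 (Kvβ1, a cytosolic subunit that speeds inactivation of Kv1 channels) read 1103 and 266.9, a difference of -2.05 ± 0.21 or 4.13-fold. Its other probe was not well above background on either array. Kcne1l (also called Kcne5, a single-pass subunit known to inhibit Kcnq1 channels) differed the other way, with 89.6 and 796.4 (3.15 ± 0.22, 8.89-fold; chromosome X at 137551189 to 137551248, mm8). With normexp the difference was 2.16. Its channel partner Kcnq1 is given above at 0.21. Kcne3, which pairs with Kcnc4 in skeletal muscle, read 56.1 and 39.0 (-0.53 ± 0.27, other probe -0.85), and Kcne1 (-0.12 ± 0.25), Kcne4 (100.9 and 97.1, -0.06 ± 0.22) and Kcnab2 (0.15 ± 0.23) differed by less than their technical error. Kcne4 and the class median were positive with spike-in scaling, at 0.37 and 0.34. Kcnip3 was detected only in control muscle with a bound of 1.2-fold, while Kcnip1, Kcnip2, Kcnip4, Kcne2 and Kcnab3 were dim on both arrays.

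Inward rectifiers comprised 13 genes, 5 of them measured, with a median of -0.52. Of the 5, 2 were at least 2-fold lower and none higher, beside 8.58% and 6.93% of all measured genes. Kcnj12 (Kir2.2) read 9007 in control and 1793 in denervated muscle. The difference was -2.33 ± 0.20 or 5.02-fold (chromosome 11 at 60886778 to 60886836, mm8). Kcnj2 (Kir2.1), the main classical inward rectifier of skeletal muscle, read 546.3 and 169.2 (-1.69 ± 0.21, 3.23-fold). The third measured Kir2 gene, Kcnj4 (Kir2.3), was dim at 44.4 and 32.3 (-0.46 ± 0.31). Kcnj11 (Kir6.2), the pore of the ATP-sensitive channel of muscle, read 3781 and 4297 and differed by 0.18 ± 0.20, so this gene did not share the lower values of the Kir2 pair. Kcnj15 was at -0.52 ± 0.31.

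Kcnj9 (a G-protein-gated channel subunit) had probes that disagreed. Its brightest probe was detected only in denervated muscle (3.96 and 59.6, at least 3.23-fold higher), and the other only in control muscle (24.7 and 9.41, at least 1.46-fold higher there), so no direction is given for this gene. Kcnj3 was detected only in control muscle with a bound of 1.84-fold. Kcnj1, Kcnj5, Kcnj6, Kcnj10, Kcnj14 and Kcnj16 were not well above background on either array.

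Two-pore channels had 7 of 10 genes measured, with a median of -0.41, or 0.014 with spike-in scaling. Of the 7, 1 was at least 2-fold lower and 1 higher, beside 8.58% and 6.93% of all measured genes. Kcnk5 (TASK-2, a leak channel opened by alkaline pH) had the highest difference of all 45 genes by its brightest probe, with 37.8 in control and 956.8 in denervated muscle (4.66 ± 0.25, 25.3-fold). That probe lies on chromosome 14 at 18931158 to 18931217 (mm8). The second Kcnk5 probe, at 18932899 to 18932958 and listed for the same transcript, read 42.0 and 64.8 (0.62 ± 0.26). Both probes were higher in the denervated pool, but the size of the difference rests on which of them is read, and that of the brightest was 2.98 with normexp. Kcnk1 (TWIK-1) was at 58.8 and 24.2 (-1.28 ± 0.31, under 2-fold in 4 of 11 alternatives), and Kcnk12 at -0.94 ± 0.33, just short of 2-fold. Kcnk6 (TWIK-2; 520.6 and 543.4, 0.06 ± 0.20, below 0 with normexp), Kcnk13 (THIK-1; 161.6 and 207.3, 0.36 ± 0.21), Kcnk3 (-0.41 ± 0.25) and Kcnk4 (-0.66 ± 0.29) were under 2-fold. Kcnk7 had a bound of 1.84-fold in favour of the control pool, and Kcnk2 and Kcnk16 were dim on both arrays. A probe listed in the file under a clone name and now assigned to Kcnk10 was also not well above background on either array.

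Calcium-activated channels had 6 of 9 genes measured and a median of -0.63, with members at both ends of the range. Kcnn3 (SK3, the small-conductance channel that denervated muscle is known to express) read 21.4 in control muscle, near the lowest detected signal of 18.4, and 387.3 in denervated muscle. The difference was 4.18 ± 0.33 or 18.1-fold by its only probe (chromosome 3 at 89747141 to 89748665, mm8), and it ranged from 2.06 with normexp to 4.61 without scaling. Kcnn2 (SK2) differed oppositely, with 167.3 and 43.2 (-1.95 ± 0.26, 3.87-fold, or -1.29 with normexp), and its second probe was detected only in control muscle. The brighter Kcnn2 probe is printed repeatedly, and 8 spots unmarked on both arrays gave a mean of -1.96 with an SD of 0.14 over spots (range -2.15 to -1.79). Kcnn1 (SK1) read 1693 and 993.6 (-0.77 ± 0.20), and Kcnn4, the intermediate-conductance channel of immune and red blood cells, 34.7 and 38.4 (0.14 ± 0.30). The 4 Kcnn genes thus gave 1 higher, 1 lower and 2 under 2-fold, where 6.93% of all measured genes were higher and 8.58% lower.

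The large-conductance pore gene Kcnma1 read 629.1 and 450.2 (-0.48 ± 0.20, or -0.06 with spike-in scaling). Its beta subunit Kcnmb4 read 66.8 and 38.1 (-0.81 ± 0.29), Kcnmb2 had a bound of 1.36-fold in favour of the control pool, and Kcnmb1, the smooth-muscle beta subunit, and Kcnmb3 were dim on both arrays. The sodium-activated genes Kcnt1 (52.7 and 38.3, -0.46 ± 0.29) and Kcnt2 (65.0 and 54.6, -0.25 ± 0.25, above 0 with loess, spike-in or no scaling) and the sperm-channel gene Kcnu1 (66.0 and 44.3, -0.58 ± 0.27) were all under 2-fold.

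Of the 33 genes with more than 1 probe, 8 had several measured probes. The lowest and highest difference had the same sign for all 8, and lay on the same side of 2-fold for 5, Kcnk5 and Kcnc2 being among the exceptions. For most members the value thus rests on 1 probe, 50 genes having no other.

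**Figure D3:**
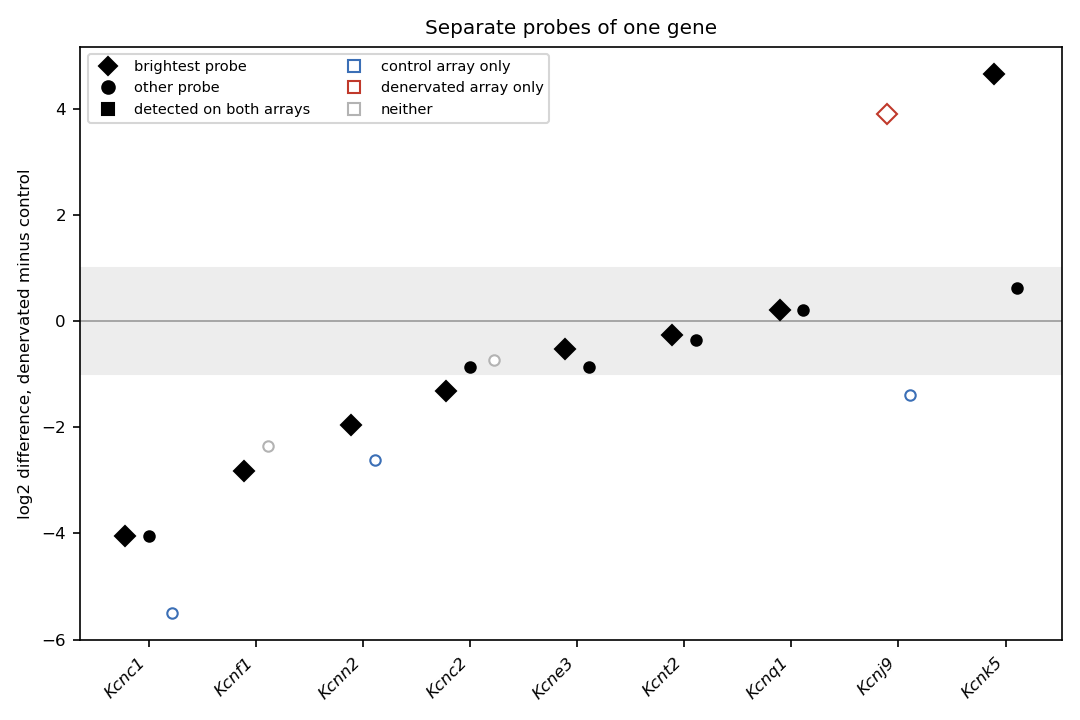
Log2 difference (denervated minus control) of each probe for 6 genes with several measured probes and for Kcnf1, Kcnn2 and Kcnj9, with diamonds for the brightest probe, circles for the others and open symbols for probes detected on fewer than 2 arrays, whose differences are not measured values. The 3 Kcnc1 probes lie at or below -4.04, whereas the 2 Kcnk5 probes stand at 4.66 and 0.62 and the Kcnj9 probes on opposite sides of 0.

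Partner proteins and potassium transport genes outside the Kcn names were read from a list of 32 genes, of which 31 were on the array and 26 measured. Of these 3 were at least 2-fold lower and 1 higher, where 8.58% and 6.93% of all measured genes were. Their median was 0.16, beside -0.11 for all measured genes, with 12 genes below 0 and 14 above. Lrrc38, a gamma subunit of the large-conductance calcium-activated channel, read 5223 in control and 361.0 in denervated muscle (-3.85 ± 0.20, 14.5-fold). Lrrc52, another gamma subunit, was detected only in control muscle and at least 6.83-fold higher there. These compare with -0.48 for Kcnma1, the pore gene of that channel. Dpp10, a partner of Kv4 channels, was at -1.22 ± 0.24, and Dpp6 at -0.35 ± 0.22.

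The regulatory subunits of the ATP-sensitive channel gave different values. Abcc8 (SUR1) read 548.5 and 2998 (2.45 ± 0.20, 5.47-fold higher), while Abcc9 (SUR2), the usual muscle form, read 8883 and 12301 (0.47 ± 0.20), and Kcnj11, their pore, 0.18. Of the sodium pump genes, which return potassium to the fibre, the beta subunit Atp1b2 read 11280 and 2810 (-2.01 ± 0.20, 4.01-fold lower). Atp1b1 was at -0.92 ± 0.20 and Atp1b3 at 0.54 ± 0.20. The pump regulator Fxyd1 (phospholemman) was at -0.74 ± 0.20, and Fxyd3 was detected only in control muscle, at least 3.73-fold higher there. The hyperpolarisation-activated channels were dim or under 2-fold, with Hcn2 at -0.94 ± 0.26 and Hcn3 at 0.81 ± 0.31, as were the measured Slc12a cotransporters (-0.86 to 0.67).

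**Figure D4:**
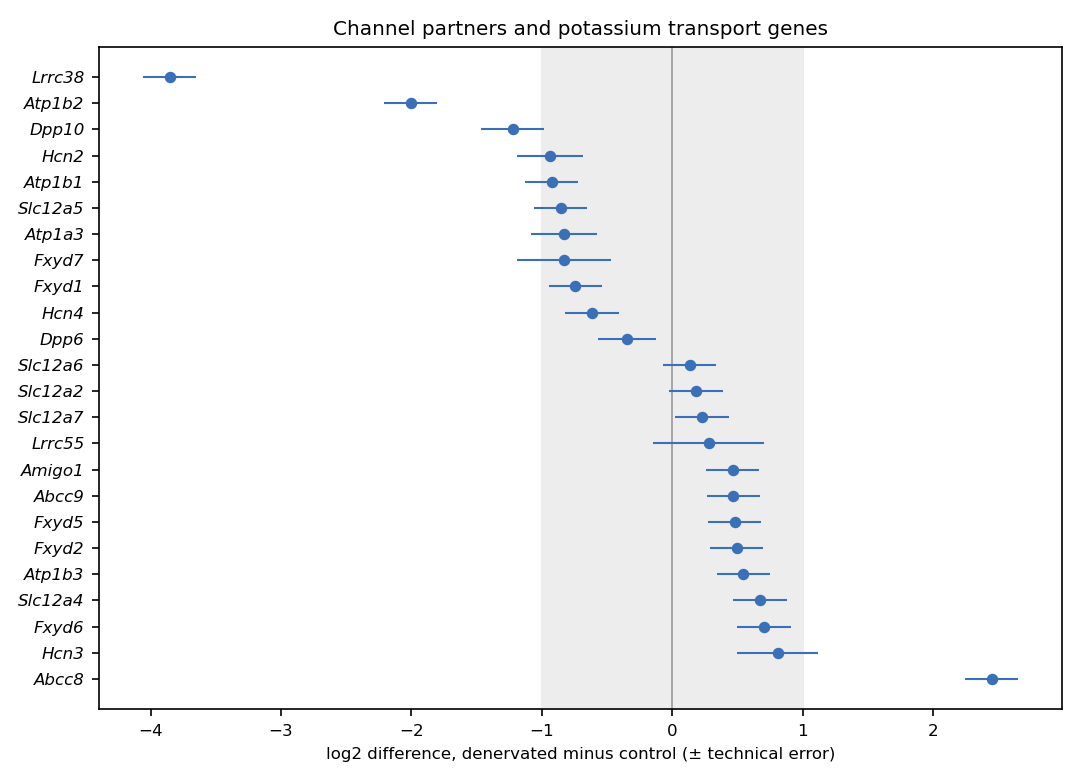
Log2 difference (denervated minus control, with technical error) of 24 measured genes of the partner and potassium transport list. Lrrc38, Atp1b2 and Dpp10 lie beyond the grey band of differences under 2-fold on the lower side and Abcc8, at 2.45, on the higher side.

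Other cells of the muscle also express some of these channels. Of 21 myeloid markers on the array 20 were measured and 19 were at least 2-fold higher after denervation (median 1.53), the summed signal being 25883 for control and 78130 for denervated muscle. Kcnn4, Kcnk6 and Kcnk13, which macrophages or microglia are known to express, lay between 0.06 and 0.36. With spike-in scaling Kcnk6 was at 0.49 and Kcnk13 at 0.78. These genes came from no fixed list and were picked with their values known, so they do not stand for all channels of these cells. Smooth-muscle and pericyte markers had a median of -0.73 (13 measured, 1 at least 2-fold lower, sums 642361 and 412037), beside -0.48 for Kcnma1, which vessel walls also express. Those sums were led by Acta2 (383373 and 263056), Synpo2 (158178 and 48721, the 1 lower gene) and Des (58354 and 74128, above 0). Which cells these genes report on was not tested. Endothelial markers had a median of -0.56 (13 measured, sums 57093 and 36130).

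Of 17 Schwann cell and nerve markers 11 were measured, with 4 at least 2-fold lower, 3 higher and a median of -0.04 (sums 15088 and 16616). The myelin gene Mbp was at -1.38 ± 0.20, whereas Ncam1, which denervated fibres also express, was at 3.33 ± 0.20. The axonal gene Nefl was detected only in control muscle, near the lowest detected signal (21.3, bound 1.27-fold), and Nefm and Nefh on neither array. Kcna1 and Kcna2, known from axons, are given above at 0.51 and as lower by a bound. Lymphocyte markers had 5 of 9 measured (median -0.46, sums 576.2 and 398.4), and fibroblast markers a median of 0.04 (10 measured, sums 256158 and 272568). The part of these cells in the channel values was not tested.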

How the data were processed

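Total RNA was measured on 2 one-colour Agilent arrays, positions of 1 slide, so that array position cannot be told apart from group. The intensity values were made by the authors with Agilent Feature Extraction 9.5 (9.5.3.1 per the file headers), which subtracted background, detrended each array and gave dim spots a surrogate value, without scaling between arrays, per the file headers. Bright spots take their technical error mainly from a multiplicative term preset at 10% in that software. The authors also deposited a table of whole-number values, used as a score. Compared spot by spot with the scanner files, the score equals each intensity as a rounded percentage of that array's upper quartile over its 45018 entries. Its column medians were 10 and 9, so its scale is settled and no centring was applied.

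Marked spots (87 and 81) were left out, spots of a probe averaged on the log2 scale, and each array's 75th percentile over 41174 probes (788 and 1063) subtracted on that scale. A gene took its brightest probe by mean log2 signal over both arrays. Of 122 member probes, 101 carried the same symbol in RefSeq (GRCm38.p6), and the others kept the file's name. A gene dim on 1 array received a bound: the bright value over the lowest detected signal of the dim array, or over the dim probe's signal where that was higher. The number of arrays limits the precision: 1 per group allows no p-value. For 173 probes printed 8 times or more, spots differed by a median SD of 0.06 (log2), which leaves out the spread between mice. The main scaling, the choice of probe and the fold rule were tested on simulated data with the same noise at every signal level. The bounds, the alternatives and the larger error of dim probes were not simulated. Members, classes and lists were chosen with earlier results of these data known. Named with values were members past 2-fold or with such a bound, the 3 brightest of each class, known muscle channels and genes with disagreeing probes; further members were given after their values were seen. Some genes are counted but not reported by name here. Analyses used Python 3.11.15, R 4.3.3 and limma 3.58.1 (normexp, offset 50).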

Additional observations from a re-analysis of the deposited data

How the results depend on the processing

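In all 12 alternatives were run, covering scaling, background, the deposited table, dim probes, the probe per gene and marked spots. For the 29 genes recomputed one by one, 257 of 336 values stayed within the technical error, 79 moved beyond it, and none of the 15 genes past 2-fold changed sign. Part of the 257 could not move. Altering the filter on dim probes leaves a kept gene's value as it is, and the probe rules alter only genes with several measured probes. Spike-in scaling and no scaling moved each of the 29 genes beyond that error. Of the 15 genes past 2-fold, 10 stayed past it wherever they had a value. Among these, Kcnf1, Kcnn2 and Kcnn3 had no value when signals of at least 4 times the lowest detected one were required. Those that did not stay included Kcnc2, Kcnh2, Kcnk1 and Kcnk5, and Kcnk5 was at 0.62 with the probe of smallest difference.

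The count of members at least 2-fold lower, 11 as reported, was 7 with spike-in scaling, without scaling and with normexp. The shares of all measured genes were then 3.93%, 3.88% and 5.86%. It was 23 of 83 without a filter on dim probes (11.7% of all genes then), and 6 of 20 with signals of at least 4 times the lowest detected one (7.63%). That filter left 2 higher members (6.73% of all genes then), and fewer genes were counted. The median of all members was -0.25 with quantile, -0.26 with loess, -0.10 with spike-in, -0.092 without scaling and -0.27 with the strict filter. With spike-in scaling and without scaling, class medians were -0.18 and -0.17 (voltage-gated), 0.34 and 0.35 (auxiliary), -0.10 and -0.092 (inward rectifier), 0.014 and 0.021 (two-pore), and -0.20 and -0.19 (calcium-activated). Loess gave 0.15 (auxiliary), -0.26 (inward rectifier) and -0.14 (two-pore), and quantile -0.25 (inward rectifier). The deposited table gave -0.74 (inward rectifier). Without a filter the auxiliary median was -0.39. The strict filter gave -0.17 (voltage-gated), -1.69 (inward rectifier) and 0.21 (two-pore). Bounds of 2-fold or more, 4 as reported, numbered 1 with normexp, an alternative chosen after seeing the data. The cause of these moves was not tested, except that scaling to spike-ins or not at all adds one shift to every gene. No paired analysis was possible because each group had 1 array. Signals near background limit Kcnn3, Kcnk5, Kcnk1, Kcnc2, Kcnf1, Kcnn2, Kcnh2 and the bounds.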
